A study of Rattus norvegicus with 7 samples.

Results

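Genes of the nuclear pore, of nuclear import and export and of the nuclear lamina were followed in rat oral epithelial ROE2 cells treated with sodium fluoride (NaF). Members were chosen by name. A probe set, the group of short oligonucleotides that reads 1 transcript on an Affymetrix array, belonged when it had exactly 1 gene symbol and that symbol was a numbered Nup, Ipo or Ranbp gene, a Kpna, Kpnb, Xpo, Lmna or Lmnb gene, or Tmpo, Emd, Lbr, Tpr, Rangap1, Sun1 or Sun2. This gave 57 of the 14218 genes named by single-symbol probe sets, with 88 of all 31099 probe sets. The rule uses gene names and no expression values. Of these, 60 probe sets for 51 genes had a mean log2 signal of at least 7 over the 7 arrays and were tested, among 10707 tested probe sets in all. The tested member nearest to this limit was a Kpna1 probe set with a mean of 7.22, and the nearest one outside it was an Xpo7 probe set with 6.93. Kpna6, Lbr, Nup50, Nup62cl, Ranbp1 and Ranbp17 had no tested probe set.

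The nuclear pore complex spans the nuclear envelope. Its scaffold is built of a Y-shaped complex and an inner ring, its channel is filled with nucleoporins rich in phenylalanine and glycine repeats, and filaments and a basket extend to the cytoplasm and to the nucleus. Importins and exportins carry proteins and RNAs through it, and the small GTPase Ran gives the transport its direction. The lamina, a meshwork of A-type and B-type lamins under the inner membrane, holds the shape of the nucleus, anchors chromatin and is linked to the cytoskeleton through SUN proteins.

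ROE2 is 1 immortalized line. It was derived from oral epithelium of transgenic rat fetuses with a temperature-sensitive form of large T-antigen, so cells of every group carry this antigen. Cells received 2 mM NaF for 3, 6 and 12 h, or sterilized water as vehicle for 0, 3, 6 and 12 h, both in medium with a low serum content. For each condition, RNA from 3 separate experiments was combined into 1 pool and measured on 1 array, which gave 3 NaF arrays and 4 vehicle arrays and no replicate of any condition. The adjusted p-values below therefore rest on the spread between the 4 vehicle arrays, which also differ in time, and assume that a single NaF array varies as they do. In such bulk samples, fewer cells of a kind and less RNA per cell cannot be told apart.

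All 11 epithelial markers, such as Krt5 and Cdh1, were bright enough to be tested, with a median log2 signal of 12.13 in vehicle. None of the leukocyte, fibroblast, endothelial and skeletal muscle markers were. The summed epithelial signal was 15.65 to 15.93 on the log2 scale in NaF arrays and 15.91 to 15.96 in vehicle arrays. The array medians lay between 5.32 and 5.35. The 5S rRNA control probe set had log2 signals of 5.67, 6.65 and 6.00 with 3, 6 and 12 h of NaF, against 4.90 to 5.46 in vehicle arrays. It was highest in the 6 h NaF array, and its part in the results of that array was not tested. Between the 3' and 5' probe sets of beta-actin, a measure of RNA quality, the log2 gap was 2.39, 1.77 and 2.15 with 3, 6 and 12 h of NaF and 1.53 to 2.83 in vehicle arrays, which overlap. An exactly repeated value was held by 23.3% of tested probe sets and by 21 of the 60 members, among them Nup160 and Nup88 with 4 distinct values over the 7 arrays each.

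Members moved little at 3 h of NaF, mostly downward at 6 h, and in both directions at 12 h. At 3 h, 0 of 60 probe sets were higher and 9 (15%) were lower than the mean of the 4 vehicle arrays (limma adjusted p under 0.05), where all tested probe sets had 2.76% in the upward and 6.29% in the downward direction. At 6 h, 4 members were higher (6.67%, against 16.7% of all tested) and 23 were lower (38.3%, against 22.2% of all tested). At 12 h, 18 were higher (30%, against 28.9% of all tested) and 17 were lower (28.3%, against 31.7% of all tested), so the shares in both directions lay near those of all probe sets. The median log2 change of the members was -0.028, -0.106 and -0.012 at 3, 6 and 12 h, against -0.007, 0.003 and -0.008 for all tested probe sets. Set against same-time vehicle, a difference of at least 1 on the log2 scale was reached by 0 members at 3 h, against 0.355% of all tested upward and 0.738% downward. At 6 h it was reached by 0 upward (1.77% of all tested) and 6 downward (2.74% of all tested), and at 12 h by 1 upward (4.42% of all tested) and 2 downward (4.82% of all tested). An unadjusted p under 0.05 was reached by 14, 31 and 38 of the 60 members at 3, 6 and 12 h, and by 24.9%, 49.1% and 65% of all tested probe sets. The 3 times share the same vehicle arrays and are not independent of one another. The 9 calls at 3 h became 0 when dim probe sets were kept in the test, 1 with the 6 h vehicle array left out, 2 with that of 12 h left out and 6 with that of 0 or 3 h left out. The 23 lower calls at 6 h became 13 with dim probe sets kept and 14 with the 6 h vehicle array left out, and the 4 higher calls became 1 in either case and also with the 12 h vehicle array left out, and 2 with that of 3 h left out. Counted by gene, 7, 20 and 13 of the 51 tested genes were lower at 3, 6 and 12 h, and 1, 12 and 11 of them kept the call with each vehicle array left out in turn. The higher genes numbered 0, 4 and 15, and at 6 and 12 h 1 and 10 of them kept the call.

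**Figure D1:**
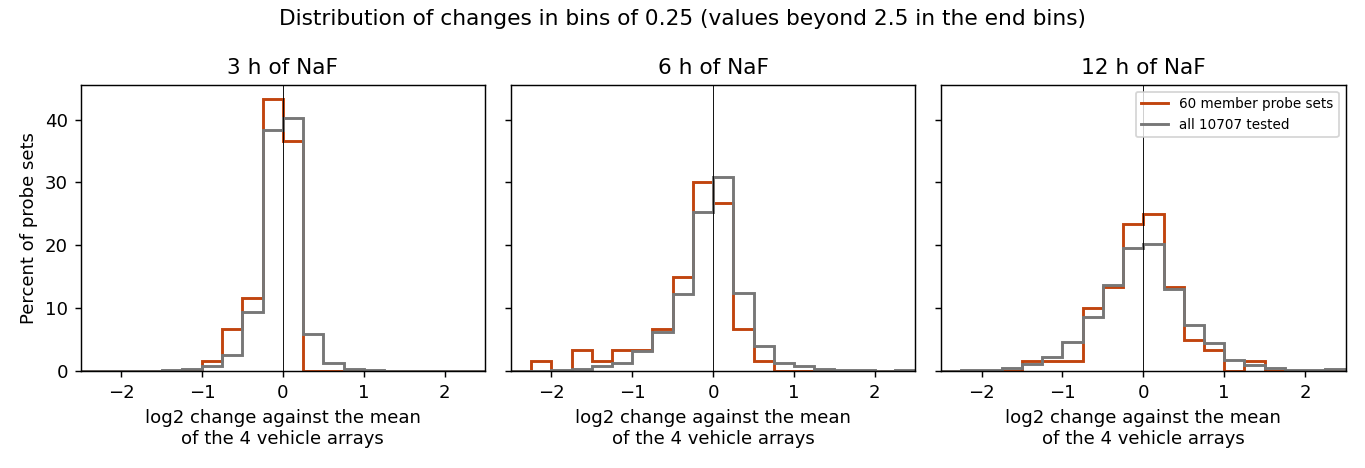
Percent of probe sets (vertical axis) by log2 change of the NaF array of 3, 6 or 12 h against the mean of the 4 vehicle arrays (horizontal axis, bins of 0.25), for the 60 members and for all 10707 tested probe sets. The members reach further down than up at 6 h (median -0.106) and lie around zero at 12 h (median -0.012).

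Among the genes of the lamina and the inner nuclear membrane, Lmnb1 and Tmpo fell at every time of NaF. Lmna fell at 12 h, and at 6 h in 1 of its 2 tested probe sets. Lmnb2 and Emd passed the test at no time. Lmnb1 encodes lamin B1, a B-type lamin that stays attached to the inner membrane. Its log2 signal was 10.84, 9.32 and 10.38 in NaF arrays at 3, 6 and 12 h, against 11.51, 11.51, 11.44 and 11.63 in vehicle arrays at 0, 3, 6 and 12 h. All 3 NaF arrays lay below all 4 vehicle arrays, and the 6 h array was the lowest. The log2 change against the vehicle mean was -0.68, -2.20 and -1.15 at 3, 6 and 12 h (SE 0.08, limma adjusted p = 0.010, 0.00037 and 0.00028). Against the vehicle of the same time the signal was 4.34-fold lower at 6 h and 2.39-fold lower at 12 h. The second Lmnb1 probe set gave log2 signals of 7.46, 6.78 and 7.57 in NaF arrays against 8.24, 8.03, 8.26 and 8.36 in vehicle arrays. It fell as well at each time, by 0.76, 1.44 and 0.66 on the log2 scale.

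Tmpo encodes the lamina-associated polypeptides 2, which bind lamins and chromatin. Its log2 signal was 9.37, 8.31 and 8.55 in NaF arrays at 3, 6 and 12 h, against 9.81, 9.98, 9.83 and 9.93 in vehicle arrays at 0, 3, 6 and 12 h. The groups did not overlap, and the arrays of 6 and 12 h were both more than 1 unit below every vehicle array. The log2 change was -0.51, -1.58 and -1.34 (SE 0.08, limma adjusted p = 0.021, 0.00043 and 0.00020). The 3 h call was not made with the 6 or 12 h vehicle array left out (adjusted p = 0.081 and 0.077). Emd, which encodes emerin of the same membrane, had log2 signals of 9.34, 9.31 and 9.34 in NaF arrays against 9.36, 9.39, 9.35 and 9.35 in vehicle arrays. These values do not overlap, but the largest log2 change was -0.05 (SE 0.06, limma adjusted p = 0.49). Lbr, the lamin B receptor, was not tested, and its log2 signal was 6.06 to 6.25 in NaF arrays and 6.07 to 6.37 in vehicle arrays, with the ranges nearly the same.

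Lmna encodes the A-type lamins A and C. Its log2 signal was 12.09, 11.93 and 11.66 in NaF arrays at 3, 6 and 12 h, against 12.09, 12.14, 12.13 and 12.15 in vehicle arrays at 0, 3, 6 and 12 h. The 3 h array lay at the lower end of the vehicle arrays and the 6 and 12 h arrays lay below them. The log2 change was -0.04, -0.20 and -0.47 (SE 0.06, limma adjusted p = 0.74, 0.041 and 0.0012). The second Lmna probe set changed by 0.15, 0.13 and -0.57, and passed the test at 12 h alone. It lay above the vehicle arrays at 3 and 6 h and below them at 12 h. The 6 h call of the first one was not made with the 3, 6 or 12 h vehicle array left out (adjusted p = 0.051, 0.11 and 0.083). Lmnb2, the other B-type lamin gene, had log2 signals of 8.07, 8.31 and 8.12 in NaF arrays against 7.72, 8.10, 7.99 and 7.99 in vehicle arrays. Its log2 change was 0.12, 0.36 and 0.17 (SE 0.14, limma adjusted p = 0.66, 0.089 and 0.35), with overlap at 3 h only, and it passed the test at 6 h with the 0 h vehicle array left out (adjusted p = 0.044).

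Sun1 and Sun2 encode inner membrane proteins that pair with nesprins of the outer membrane. Sun1 had log2 signals of 10.32, 10.07 and 10.14 in NaF arrays at 3, 6 and 12 h, against 10.41, 10.42, 10.42 and 10.49 in vehicle arrays at 0, 3, 6 and 12 h. All NaF arrays lay below the vehicle arrays. Sun1 fell by 0.36 at 6 h and by 0.30 at 12 h on the log2 scale (SE 0.06, limma adjusted p = 0.0073 and 0.0081), and its change at 3 h was -0.11 (adjusted p = 0.34). Sun2 had log2 signals of 9.20, 9.27 and 8.67 in NaF arrays against 9.08, 9.25, 9.08 and 9.17 in vehicle arrays. It was below the vehicle arrays at 12 h only, where it fell by 0.47 (SE 0.09, limma adjusted p = 0.0049).

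Lmnb1 and Tmpo are known to be more expressed in cycling than in arrested cells, so a list of 33 proliferation genes was set beside them. Of 28 tested genes of this list, 5, 25 and 28 were lower at 3, 6 and 12 h of NaF and none was higher, with median log2 changes of -0.27, -0.64 and -0.83. Of all tested probe sets, 6.29%, 22.2% and 31.7% were lower and 2.76%, 16.7% and 28.9% higher. Between 12 h and 6 h of NaF, 5 genes of the list were higher at 12 h and 10 were lower, against 21.5% and 20% of all tested. Ccna2, which encodes cyclin A2 and is of the higher ones, had log2 signals of 9.49, 8.50 and 9.41 in NaF arrays at 3, 6 and 12 h, against 10.13, 10.13, 10.20 and 10.12 in vehicle arrays at 0, 3, 6 and 12 h. It was lowest in the 6 h NaF array. Gins1, which encodes a subunit of the replicative helicase and is of the lower ones, had log2 signals of 7.77, 7.44 and 6.32 in NaF arrays against 7.77, 7.88, 7.98 and 7.94 in vehicle arrays. It was lowest in the 12 h NaF array. Ccna2 and Gins1 were picked after their values were seen, and Gins1 had the largest fall of the list from 6 to 12 h. Between 12 h and 6 h of NaF, 13 of the 28 tested genes were called in neither direction. The part of proliferation in the changes of the members was not tested.

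The promoters of Lmnb1, Tmpo and Nup210 are shown because these are the genes with the largest falls at 6 h. They are RefSeq sequences of the rat build GRCr8, from 250 bases before to 50 bases after the annotated start, in the direction of the gene. The Lmnb1 promoter (chr18:52373689-52373988, plus strand) has in capitals 1 CCAAT box, here in its reverse form, and 1 TTTGAA, the core of the cell cycle genes homology region. The Tmpo promoter (chr7:27554886-27555185, minus strand) has in capitals 2 CCAAT boxes. The Nup210 promoter (chr4:125166998-125167297, minus strand) has in capitals 1 TTTCCCGC, a form of the E2F site.
Lmnb1 promoter: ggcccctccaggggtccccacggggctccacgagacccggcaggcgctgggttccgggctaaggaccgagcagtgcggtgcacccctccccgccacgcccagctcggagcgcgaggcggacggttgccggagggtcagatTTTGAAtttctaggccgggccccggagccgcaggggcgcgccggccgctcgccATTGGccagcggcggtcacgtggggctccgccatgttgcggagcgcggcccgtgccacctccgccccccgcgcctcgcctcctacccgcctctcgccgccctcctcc
Tmpo promoter: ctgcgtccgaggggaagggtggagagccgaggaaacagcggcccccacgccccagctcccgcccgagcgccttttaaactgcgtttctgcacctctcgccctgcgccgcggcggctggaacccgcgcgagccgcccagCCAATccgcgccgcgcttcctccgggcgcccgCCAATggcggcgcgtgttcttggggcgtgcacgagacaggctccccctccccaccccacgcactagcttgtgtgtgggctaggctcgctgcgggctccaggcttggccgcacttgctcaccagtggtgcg
Nup210 promoter: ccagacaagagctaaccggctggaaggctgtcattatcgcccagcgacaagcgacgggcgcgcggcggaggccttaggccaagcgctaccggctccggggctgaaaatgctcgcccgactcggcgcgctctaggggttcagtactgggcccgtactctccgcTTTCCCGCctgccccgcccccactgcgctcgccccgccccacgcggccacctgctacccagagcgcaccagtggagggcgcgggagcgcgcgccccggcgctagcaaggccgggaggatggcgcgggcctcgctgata

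A promoter was found for 45 of the 51 tested genes, and 6 motifs were searched on both strands, with overlaps between them allowed. CCAAT stood in 44.4% of the 45 member promoters and in 37.7% of all 27457 rat promoters of the same length. TTTGAA stood in 24.4% of the member promoters and in 18.1% of all. The E2F forms stood in few member promoters. TTTCCCGC stood in 2 (4.44%), those of Nup210 and Nup62, against 1.03% of all. TTTGGCGC stood in 1 (2.22%), that of Nup155, against 0.521% of all. The site of NRF1 stood in 6 (13.3%) against 6.15%. TGATGNAAN, the composite site of C/EBP and ATF factors, stood in 2 (4.44%) against 3.8%. The median GC content was 62.3% in the member promoters and 52.3% in all. These letters describe the windows and show no binding.

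**Figure D2:**
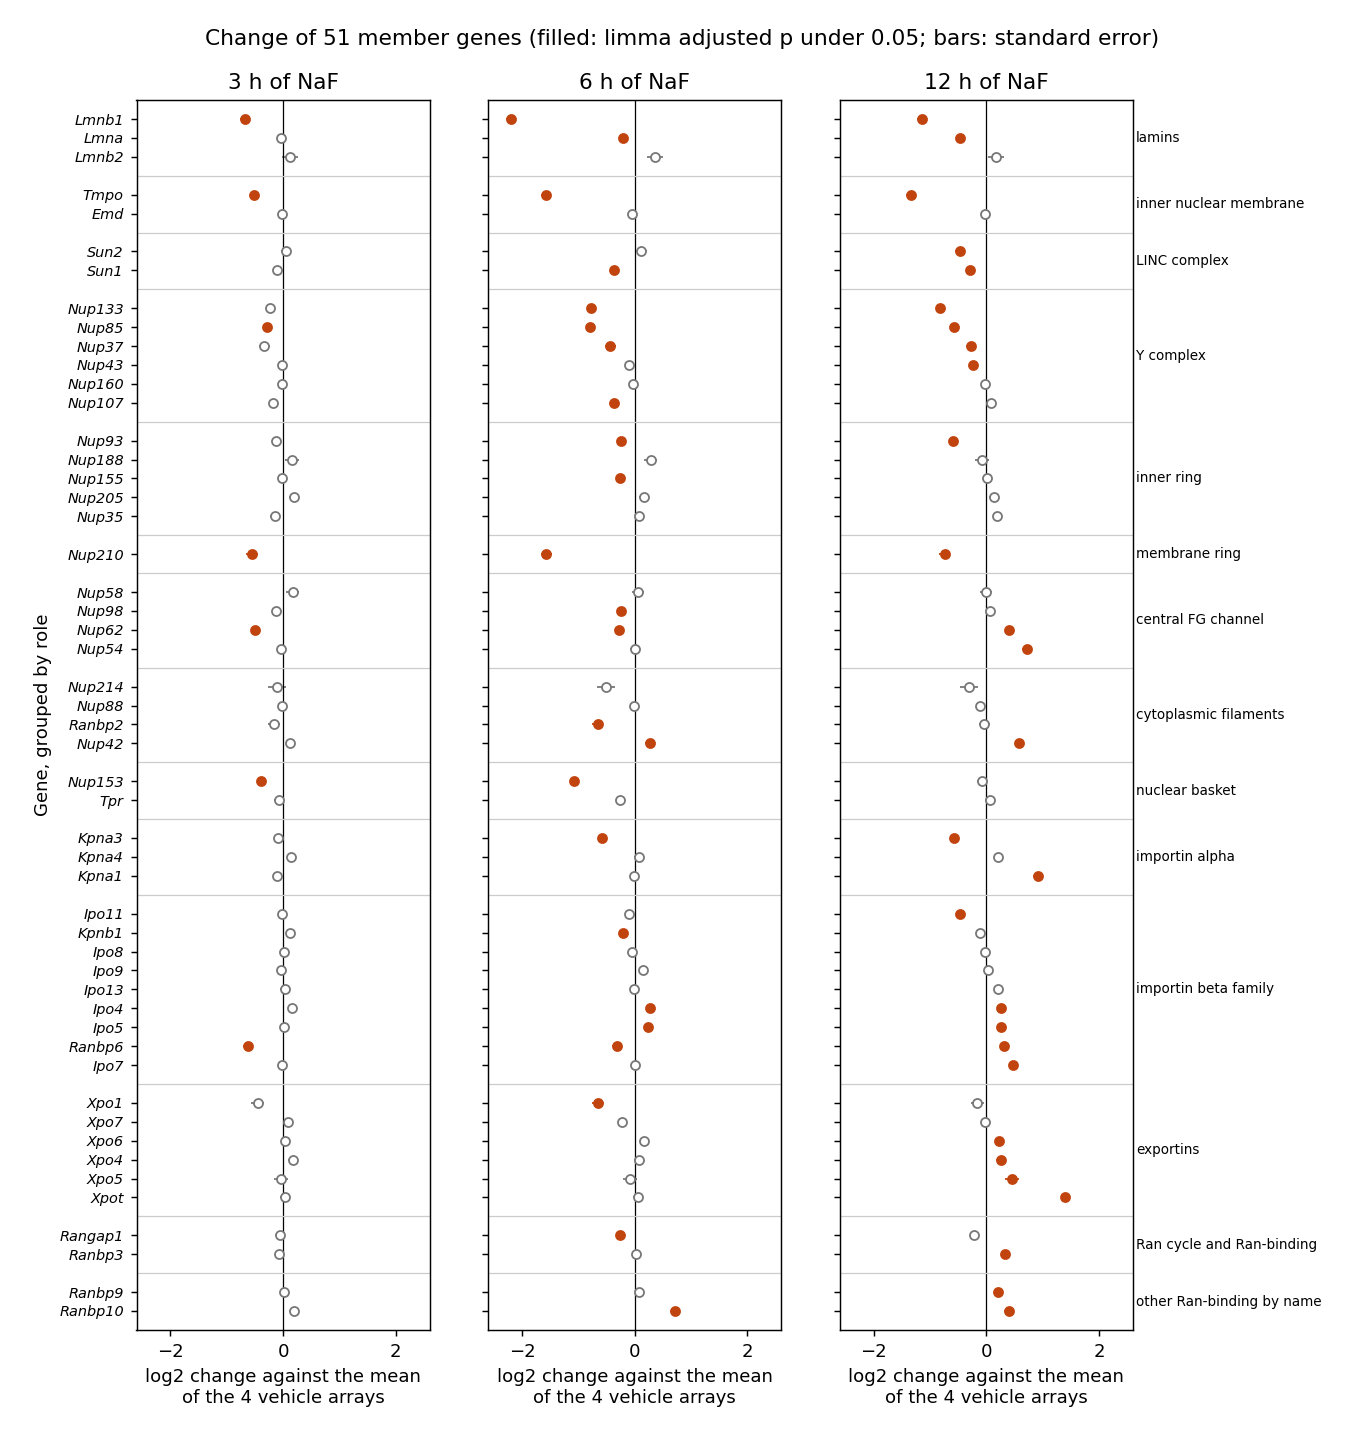
Log2 change (horizontal axis) of each of the 51 tested genes at 3, 6 and 12 h of NaF against the mean of the 4 vehicle arrays, grouped by role in the nuclear envelope and in transport (vertical axis). Filled points have a limma adjusted p under 0.05, open points do not, and bars are standard errors. Lmnb1, Tmpo, Nup210 and Nup153 lie furthest to the left at 6 h, and Xpot lies furthest to the right at 12 h, at 1.40.

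The Y complex forms the outer scaffold rings of the pore. Of its 6 tested genes, 1, 4 and 4 were lower at 3, 6 and 12 h and none was higher, with median log2 changes of -0.21, -0.40 and -0.25. Of all tested probe sets, 6.29%, 22.2% and 31.7% were lower and 2.76%, 16.7% and 28.9% higher at these times. These 6 genes are those of the name rule. Ahctf1, Seh1l and Sec13, Y complex genes outside that rule, had log2 changes of 0.70, 0.06 and -0.03 at 12 h. Seh1l and Sec13 were named after their values were seen. Nup133, a stem subunit of the Y, had log2 signals of 8.65, 8.10 and 8.06 in NaF arrays at 3, 6 and 12 h, against 8.84, 8.95, 8.86 and 8.90 in vehicle arrays at 0, 3, 6 and 12 h. All NaF arrays lay below the vehicle arrays, and those of 6 and 12 h were nearly equal. Its log2 change was -0.24, -0.78 and -0.82 (SE 0.07, limma adjusted p = 0.096, 0.00093 and 0.00035). Nup107, which binds Nup133 in the stem, had log2 signals of 8.92, 8.73 and 9.18 in NaF arrays against 9.07, 9.07, 9.14 and 9.09 in vehicle arrays. The NaF arrays of 3 and 6 h were below and that of 12 h just above the vehicle arrays. Nup107 fell by 0.36 at 6 h (SE 0.06, limma adjusted p = 0.0068), and its log2 change at 12 h was 0.08 (adjusted p = 0.28). Nup85, Nup37 and Nup43, further subunits picked after their values were seen, changed by -0.57, -0.27 and -0.24 at 12 h. These passed the test, but Nup37 and Nup43 did not with the 3 or 6 h vehicle array left out, nor Nup37 without that of 12 h (highest adjusted p = 0.090 and 0.067). The gene lower at 3 h was Nup85, with a log2 change of -0.29, and this call was lost without any 1 of the vehicle arrays. Nup160, also picked in this way, changed by -0.02 to -0.03 at the 3 times and passed the test at none.

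The inner ring lines the pore next to the membrane. Of its 5 tested genes, 0, 2 and 1 were lower at 3, 6 and 12 h and none was higher. Their median log2 changes were -0.01, 0.08 and 0.01. Among all tested probe sets, 6.29%, 22.2% and 31.7% were lower and 2.76%, 16.7% and 28.9% higher at these times. Nup93, the central subunit of the ring, had log2 signals of 9.73, 9.61 and 9.26 in NaF arrays at 3, 6 and 12 h, against 9.81, 9.85, 9.91 and 9.84 in vehicle arrays at 0, 3, 6 and 12 h. All NaF arrays lay below the vehicle arrays, that of 12 h furthest. It fell by 0.24 at 6 h and by 0.59 at 12 h (SE 0.06, limma adjusted p = 0.030 and 0.00079). The 6 h call was not made with the 6 or 12 h vehicle array left out (adjusted p = 0.077 and 0.065). Nup35, the ring gene with the highest change at 12 h, had a log2 change of 0.19 there (SE 0.08, limma adjusted p = 0.091).

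Nup210 encodes a transmembrane nucleoporin with a large domain in the lumen of the nuclear envelope, and it fell at every time. Its log2 signal was 8.15, 7.13 and 7.96 in NaF arrays at 3, 6 and 12 h, against 8.58, 8.82, 8.65 and 8.76 in vehicle arrays at 0, 3, 6 and 12 h. The groups did not overlap, and the 6 h array was the lowest. The log2 change was -0.55, -1.57 and -0.74 (SE 0.10, limma adjusted p = 0.032, 0.00049 and 0.0019). The 3 h call was not made with the 3, 6 or 12 h vehicle array left out (adjusted p = 0.056, 0.11 and 0.10). Against the vehicle of the same time its signal was 2.87-fold lower at 6 h and 1.73-fold lower at 12 h.

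Of the nuclear basket, Nup153 fell at 3 and 6 h and was at the vehicle level at 12 h. Nup153 joins the basket to the pore. Its log2 signal was 10.68, 10.00 and 10.99 in NaF arrays at 3, 6 and 12 h, against 11.14, 11.14, 11.03 and 10.99 in vehicle arrays at 0, 3, 6 and 12 h. The arrays of 3 and 6 h lay below every vehicle array, and that of 12 h was equal to the vehicle of 12 h to 2 decimals. The log2 change was -0.39, -1.07 and -0.08 (SE 0.08, limma adjusted p = 0.042, 0.00070 and 0.42). The 3 h call was lost without any 1 of the 4 vehicle arrays (adjusted p = 0.077 to 0.12). Tpr, which forms the filaments of the basket, changed by -0.08, -0.26 and 0.06 (SE 0.08, limma adjusted p = 0.64, 0.053 and 0.55), and passed the test at 6 h with the 0 h vehicle array left out (adjusted p = 0.029). Its second probe set fell by 0.37 at 6 h and 0.38 at 12 h, so the Tpr probe sets disagreed at 12 h. Nup50, the other basket gene, was not tested.

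In the central channel, 1 of 4 tested genes was lower at 3 h (6.29% of all tested), 2 were lower at 6 h (22.2% of all tested) and 2 were higher at 12 h (28.9% of all tested). Nup54, which forms the channel with Nup62 and Nup58, had log2 signals of 7.89, 7.92 and 8.64 in NaF arrays at 3, 6 and 12 h, against 8.01, 7.92, 7.93 and 7.84 in vehicle arrays at 0, 3, 6 and 12 h. Only the 12 h array left the range of the vehicle arrays. Nup54 rose by 0.72 there (SE 0.08, limma adjusted p = 0.00079). Nup62, named after its values were seen, had log2 signals of 9.88, 10.09 and 10.77 in NaF arrays against 10.29, 10.39, 10.39 and 10.41 in vehicle arrays. It was below the vehicle arrays at 3 and 6 h and above them at 12 h. Its log2 change was -0.49, -0.28 and 0.40 (SE 0.07, limma adjusted p = 0.015, 0.026 and 0.0045), and the 3 and 6 h calls were lost with the 6 or 12 h vehicle array left out (adjusted p of 0.077 at most). Nup58 changed by -0.01 at 12 h and passed the test at no time.

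Of the cytoplasmic filaments, Nup42 rose and Ranbp2 gave 2 different answers. Nup42, a nucleoporin with a role in mRNA export, had log2 signals of 7.52, 7.66 and 7.96 in NaF arrays at 3, 6 and 12 h, against 7.49, 7.40, 7.33 and 7.33 in vehicle arrays at 0, 3, 6 and 12 h. All NaF arrays lay above the vehicle arrays. It rose by 0.27 at 6 h and 0.58 at 12 h (SE 0.08, limma adjusted p = 0.047 and 0.0020), and the 6 h call was not made with the 3, 6 or 12 h vehicle array left out (adjusted p = 0.083, 0.11 and 0.097). Ranbp2 encodes the largest filament nucleoporin, a SUMO ligase that binds Ran, and was named after its values were seen. One Ranbp2 probe set changed by -0.66 at 6 h and -0.04 at 12 h, the other by 0.19 and 0.86, with a call at 6 h for the first and at 12 h for the second. Nup214 changed by -0.11, -0.51 and -0.31 (SE 0.16, limma adjusted p = 0.74, 0.053 and 0.15), and passed the test with the 0 h vehicle array left out at 6 h (adjusted p = 0.017) and 12 h (adjusted p = 0.027).

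The importin alpha genes, whose products bind the nuclear localization signal of a cargo, moved in opposite directions. Kpna1 had log2 signals of 8.18, 8.28 and 9.20 in NaF arrays at 3, 6 and 12 h, against 8.20, 8.28, 8.28 and 8.38 in vehicle arrays at 0, 3, 6 and 12 h. The 12 h NaF array stood above all others. Kpna1 rose by 0.91 there (SE 0.08, limma adjusted p = 0.00041), and its 3 probe sets all rose, by 0.46 to 0.91. Kpna3 had log2 signals of 10.02, 9.53 and 9.54 in NaF arrays against 10.02, 10.13, 10.13 and 10.15 in vehicle arrays. Its arrays of 6 and 12 h were well below the vehicle arrays and that of 3 h was at their lower end. Kpna3 fell by 0.58 at 6 h and 0.57 at 12 h (SE 0.07, limma adjusted p = 0.0026 and 0.0014). Kpna4, named after its values were seen, changed by 0.07 to 0.21 and passed the test at no time.

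The importin beta family carries cargo with or without an importin alpha. Of its 9 tested genes, 0, 2 and 4 were higher and 1, 2 and 1 were lower at 3, 6 and 12 h. Of all tested probe sets, 2.76%, 16.7% and 28.9% were higher and 6.29%, 22.2% and 31.7% were lower at 3, 6 and 12 h. Ipo7, a receptor for ribosomal proteins among others, had log2 signals of 10.36, 10.38 and 10.84 in NaF arrays at 3, 6 and 12 h, against 10.33, 10.38, 10.39 and 10.39 in vehicle arrays at 0, 3, 6 and 12 h. It was above the vehicle arrays at 12 h only, by 0.47 on the log2 scale (SE 0.06, limma adjusted p = 0.0013). Ipo11 had log2 signals of 9.61, 9.53 and 9.18 in NaF arrays against 9.56, 9.67, 9.67 and 9.64 in vehicle arrays. It lay below the vehicle arrays at 6 and 12 h and fell by 0.46 at 12 h (SE 0.07, limma adjusted p = 0.0024). Kpnb1, which encodes importin beta 1, fell by 0.20 at 6 h (SE 0.06, limma adjusted p = 0.037), a call lost with the 6 or 12 h vehicle array left out (adjusted p of 0.10 at most). Its second probe set changed by -0.25 and did not pass. Ranbp6, a close relative of Ipo5, had log2 signals of 8.61, 8.92 and 9.56 in NaF arrays against 9.23, 9.34, 9.19 and 9.19 in vehicle arrays, below them at 3 and 6 h and above them at 12 h. Its log2 change was -0.63, -0.32 and 0.32 (SE 0.08, limma adjusted p = 0.010, 0.024 and 0.014). The 3 h call was not made with the 6 h vehicle array left out (adjusted p = 0.054), and the 6 h call without that of 0 or 6 h (adjusted p of 0.057 at most). Ipo4 and Ipo5 rose by 0.27 and 0.23 at 6 h and by 0.25 each at 12 h. Both calls of Ipo4 were lost with the 6 or 12 h vehicle array left out. The 6 h call of Ipo5 was lost without any 1 of the vehicle arrays. Ipo4, Ipo5, Kpnb1 and Ranbp6 were named after their values were seen.

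Of the 6 tested exportins, none passed the test at 3 h, 1 was lower at 6 h (22.2% of all tested) and 4 were higher at 12 h (28.9% of all tested), of which 1, Xpot, kept the call with each vehicle array left out in turn. Xpot, the export receptor of tRNA, had log2 signals of 9.49, 9.52 and 10.86 in NaF arrays at 3, 6 and 12 h, against 9.38, 9.52, 9.52 and 9.43 in vehicle arrays at 0, 3, 6 and 12 h. The arrays of 3 and 6 h lay within the range of the vehicle arrays, and that of 12 h was the highest of all. Xpot rose by 1.40 at 12 h (SE 0.08, limma adjusted p = 0.00018), which was 2.70-fold against the vehicle of the same time. These 6 exportins are those of the name rule. Cse1l, an exportin outside it named after its values were seen, changed by -0.20, -0.34 and -0.28 at 3, 6 and 12 h. Its NaF arrays all lay below the vehicle arrays. Xpo1 encodes the export receptor for leucine-rich signals. Its log2 signal was 10.20, 10.00 and 10.48 in NaF arrays, against 10.60, 10.49, 10.76 and 10.72 in vehicle arrays. Every NaF array lay below every vehicle array, that of 12 h by a small margin. Xpo1 fell by 0.65 at 6 h (SE 0.11, limma adjusted p = 0.0075), and its log2 change at 12 h was -0.16 (adjusted p = 0.26). The other Xpo1 probe set had log2 signals of 10.10, 9.50 and 10.31 in NaF arrays against 10.60, 10.52, 10.64 and 10.60 in vehicle arrays. It fell at each time, by 0.50, 1.09 and 0.29, so the Xpo1 probe sets differed in the call at 3 and 12 h. Xpo4, Xpo5 and Xpo6, named after their values were seen, rose by 0.26, 0.45 and 0.22 at 12 h (limma adjusted p = 0.044, 0.021 and 0.029). All 3 calls were lost with the 12 h vehicle array left out. That of Xpo4 was also lost without the 0 or 6 h one, that of Xpo5 without the 3 h one and that of Xpo6 without the 6 h one (highest adjusted p = 0.094, 0.059 and 0.061).

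**Figure D3:**
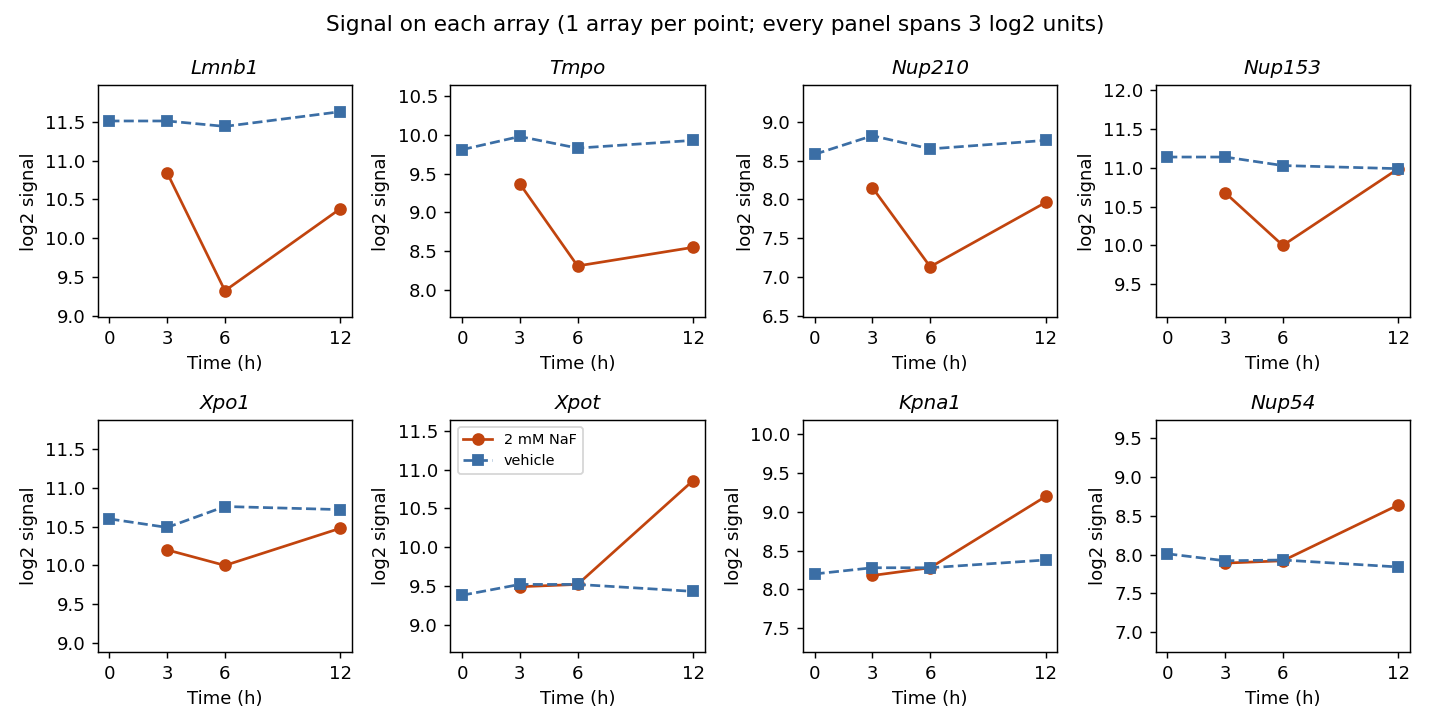
Log2 signal (vertical axis, 3 units in each panel) against time in h (horizontal axis) for 8 genes, with circles for the NaF arrays and squares for the vehicle arrays, 1 array per point. Lmnb1, Tmpo, Nup210, Nup153 and Xpo1 are lowest at 6 h of NaF, whereas Xpot, Kpna1 and Nup54 lie above all vehicle arrays at 12 h.

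Of the Ran cycle, the tested members Rangap1 and Ranbp3 had small log2 changes, of 0.33 at most in size. Outside the name rule, Rcc1, the exchange factor of Ran, changed by -0.29, -0.62 and -0.07 at 3, 6 and 12 h. Nutf2 changed by -0.75 at 12 h, and Ran itself by -0.05 at 6 h and 0.06 at 12 h. Rcc1 and Ran were named after their values were seen. Rangap1 encodes the protein that activates the GTPase of Ran. It had log2 signals of 9.82, 9.61 and 9.65 in NaF arrays at 3, 6 and 12 h, against 9.77, 9.93, 9.88 and 9.91 in vehicle arrays at 0, 3, 6 and 12 h. It was below the vehicle arrays at 6 and 12 h and fell by 0.26 at 6 h (SE 0.08, limma adjusted p = 0.045). The 6 h call was not made with the 3, 6 or 12 h vehicle array left out (adjusted p of 0.11 at most), and the 12 h change of -0.22 (adjusted p = 0.051) passed without that of 0 h (adjusted p = 0.016). Ranbp3, a cofactor of Xpo1, had log2 signals of 9.62, 9.71 and 10.03 in NaF arrays against 9.69, 9.71, 9.67 and 9.71 in vehicle arrays. It was above the vehicle arrays at 12 h only and rose by 0.33 there (SE 0.06, limma adjusted p = 0.0039). Ranbp9 and Ranbp10 share the name, but their products are scaffolds of a ubiquitin ligase. Ranbp10 had log2 signals of 8.87, 9.39 and 9.07 in NaF arrays against 8.79, 8.59, 8.66 and 8.63 in vehicle arrays, all above them. It rose by 0.72 at 6 h and 0.40 at 12 h (SE 0.09, limma adjusted p = 0.0024 and 0.010). Ranbp9 rose by 0.20 at 12 h (SE 0.06, limma adjusted p = 0.032), a call lost with the 6 or 12 h vehicle array left out (adjusted p = 0.086 and 0.051).

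NaF at 12 h was also set against NaF at 6 h, in the same fit, to see which members differed between these times. Of the 60 members, 21 (35%) were higher at 12 h than at 6 h and 5 (8.33%) were lower, where 21.5% and 20% of all tested probe sets were. The median difference was 0.174 for the members and -0.005 for all. Of these, Xpot, Lmnb1, Nup153, Kpna1, Nup210 and Nup54 were higher at 12 h by 1.34, 1.05, 0.99, 0.92, 0.84 and 0.72 on the log2 scale (limma adjusted p from 0.0019 to 0.0059). Tmpo differed by 0.24 (SE 0.11, limma adjusted p = 0.12). Sun2, Nup93, Ipo11 and Lmna were lower at 12 h than at 6 h, by 0.59, 0.35, 0.35 and 0.27. The calls of Ipo11 and Lmna were lost with the 6 h vehicle array left out, and that of Lmna also without that of 12 h (highest adjusted p = 0.057 and 0.080). Only 1 array stood on each side of this comparison, and the spread again came from the vehicle arrays. The 5 lower calls became 3 with the 6 h vehicle array left out and 2 with dim probe sets kept.

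The 3 NaF arrays together were compared with the 4 vehicle arrays, the 1 comparison with several arrays on both sides. Of the 60 members, 0 were higher (4.01% of all tested) and 7 were lower (11.7%, against 4.49% of all tested), namely both Lmnb1 probe sets and Tmpo, Nup210, Nup133, Nup85 and Nup37. The log2 difference was -1.34 for Lmnb1 (SE 0.31, limma adjusted p = 0.042) and -1.14 for Tmpo (SE 0.23, limma adjusted p = 0.032). An unadjusted p under 0.05 was reached by 17 members and by 30.6% of all tested probe sets. All 7 calls were lost with time as a block, which pairs the NaF and vehicle arrays of 3, 6 and 12 h. They were lost as well by Student's t-test after adjustment, a test the paper did not describe for its arrays. They were also lost without any 1 of the vehicle arrays. There were 2 calls without the NaF array of 6 h, and 13 lower calls were made without the NaF array of 3 h or of 12 h. By value alone, 14 members had all 3 NaF arrays below all 4 vehicle arrays (15.2% of all tested) and 5 had them above (14.2% of all tested).

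Other genes of nuclear transport and of the envelope, a list of 42 symbols, were counted beside the members. Nupl1 and Nupl2 of this list are older names of the members Nup58 and Nup42 and were not tested under these names. The 33 tested genes of the list lie outside the name rule. Of these, 0, 3 and 6 were higher and 3, 9 and 10 were lower at 3, 6 and 12 h. All tested probe sets had 2.76%, 16.7% and 28.9% higher and 6.29%, 22.2% and 31.7% lower. The lower calls of Nutf2, Pom121 and Tor1a at 3 h were each lost with some vehicle array left out. At 6 h this held for the higher calls of Fnta and Tnpo1 and the lower call of Tor1a. At 12 h it held for the lower calls of Eny2, Ndc1 and Rce1 and the higher call of Tor1aip1. Syne2, which encodes nesprin-2, the outer membrane partner of SUN proteins, had log2 signals of 8.08, 7.95 and 6.76 in NaF arrays at 3, 6 and 12 h, against 7.72, 7.95, 8.04 and 8.17 in vehicle arrays at 0, 3, 6 and 12 h. It left the vehicle range at 12 h only and fell by 1.21 there (SE 0.16, limma adjusted p = 0.0016). Nutf2, which brings Ran back into the nucleus, fell by 0.33, 0.40 and 0.75 at 3, 6 and 12 h (SE 0.07, limma adjusted p = 0.045, 0.0077 and 0.00049), and the 3 h call was lost with the 0, 6 or 12 h vehicle array left out (adjusted p of 0.15 at most). Nxf1, the main export receptor of mRNA, rose by 0.56 at 6 h and 0.78 at 12 h (SE 0.11, limma adjusted p = 0.011 and 0.0018). Ahctf1, which starts pore assembly on chromatin, had log2 signals of 9.66, 9.54 and 10.31 in NaF arrays against 9.63, 9.67, 9.60 and 9.55 in vehicle arrays, and rose by 0.70 at 12 h (SE 0.07, limma adjusted p = 0.00053).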

How the data were processed

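RNA of ROE2 cells was measured on 7 Affymetrix arrays, 3 for NaF and 4 for vehicle. The authors hybridized labeled cRNA and took the scanned intensities into GeneSpring GX, with a summarization and normalization not given in the sources used here. Each deposited value was taken as the log2 signal of a probe set, and no further scaling was applied. Detection calls were not used here. The labels name the first vehicle array only as control, and its time of 0 h came from the methods. In the platform annotation of GEO, 20832 of 31099 probe sets carried a single gene symbol, 436 carried several and 9831 carried none. The symbols of all 57 member genes were found in the RefSeq gene table. One probe set whose symbols include Kpna2 was left out because it has several. In addition, 57 control probe sets were left out. No gene coordinates are given except those of promoters, since the array annotation names no build.

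Probe sets with a mean log2 signal of at least 7 over all 7 arrays were tested with the lmFit and eBayes functions of limma 3.58.1 (R 4.3.3). Calls had a Benjamini-Hochberg p under 0.05 over all 10707. Each contrast was a NaF array minus the vehicle mean, in a fit with 4 group means, with 3 residual and 2.79 prior degrees of freedom. The fits were checked on simulated data, with every array drawn from the mean and SD of the vehicle arrays. That check could not test whether a NaF array varies as the vehicle arrays do. The median vehicle SD of the members was 0.0694 and the median SE at 12 h 0.0782 (log2), and the number of arrays limits the precision. A gene with several tested probe sets was represented by that of the highest mean. The rule for named genes took all lamin, inner membrane and SUN genes, genes called and past 1 on the log2 scale against the same-time vehicle, the highest and lowest gene of each role at 12 h and up to 4 called genes of the further transport list. The members are defined by gene names alone, but this gene group, the further lists and the tests were chosen with earlier results of these data known. Tables were handled in Python 3.11.15 with pandas 2.3.3. Alternatives were other filters, scalings, a variance trend, each array left out, time as a block and averaging the probe sets of a gene. A fold threshold and Student's t-test were also tried.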

Additional observations from a re-analysis of the deposited data

Results flagged for a closer look

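In 28 named genes the 4 vehicle arrays were searched for 1 value far from the others, and 4 were found. The highest vehicle value stood apart for Emd (9.39, in the 3 h array) and Sun1 (10.49, in the 12 h array), and the lowest for Ipo7 (10.33) and Kpna3 (10.02), both in the 0 h array. Such a gap arises by chance in about 1 of 20 groups.

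The change under NaF differed between 12 h and 6 h, by the limma contrast of both arrays, in 14 of the 28 named genes. Of all tested probe sets, 21.5% were higher and 20% were lower in this contrast. Named genes were chosen in part by their 6 and 12 h values, so such differences among them were partly set by that choice. The difference of 12 h minus 6 h was positive for Xpot (1.34), Lmnb1 (1.05), Nup153 (0.99), Kpna1 (0.92), Nup210 (0.84), Nup54 (0.72), Xpo1 (0.48), Ipo7 (0.46), Nup107 (0.45) and Ranbp3 (0.32). It was negative for Sun2 (-0.59), Ipo11 (-0.35), Nup93 (-0.35) and Lmna (-0.27). Of these, the calls of Xpo1, Ipo11 and Lmna were lost with the 6 h vehicle array left out, that of Lmna also with the 12 h one and that of Xpo1 with the 0 or 12 h one left out.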

How the results depend on the processing

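Counts of members called were recomputed under each alternative. With dim probe sets kept in the test, the lower calls at 3 h went to 0, those at 6 h to 13 and the higher calls at 6 h to 1, the lower calls of 12 h against 6 h of NaF to 2, and the lower calls of 3 NaF against 4 vehicle arrays to 0. More probe sets enter that adjustment. With 1 array left out at a time, lower calls numbered 1 to 6 at 3 h, 14 to 24 at 6 h and 15 to 19 at 12 h, and higher calls 0 at 3 h, 1 to 5 at 6 h and 13 to 18 at 12 h. In 12 h against 6 h of NaF they numbered 15 to 23 higher and 3 to 7 lower, and in 3 NaF against 4 vehicle arrays 0 to 3 higher and 0 to 13 lower. In that last comparison, time as a block gave 0 lower calls, as did Student's t-test after adjustment. The block pairs the NaF and vehicle arrays of 3, 6 and 12 h. A threshold of 1 on the log2 scale in place of the test gave, against either the same-time vehicle or the vehicle mean, 0 lower at 3 h, 0 higher and 6 lower at 6 h, and 1 higher and 2 lower at 12 h. The other filters and scalings, the variance trend and averaging over the probe sets of a gene moved no count by more than 1.5 times. The labels give no replicate numbers, so time was the only block tried. Of 84 values of named genes at a time, 36 were called, 27 of them under every alternative with a test, and none of the called values changed sign. Named genes were chosen in part by their own calls and values, so these counts do not stand for all members. Apart from these settings, the cause of a change with the processing was not tested.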
